A study of Mus musculus with 2 samples.

Results

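Transforming growth factor beta (TGF-beta) ligands, their receptors, the SMAD signal genes and the responder Tgfbi were examined in bone marrow-derived dendritic cells of the mouse, labelled GMDC. The 9 genes were chosen by name as Tgfb1, Tgfb2, Tgfb3, Inhba, Tgfbr1, Tgfbr2, Smad3, Smad7 and Tgfbi, out of 22180 genes that had a probe set annotated with exactly 1 symbol. Each was measured by 1 probe set, and 9 of 9 passed the filter on low values described below. The study held 1 control culture and 1 culture given medium that E0771 cells, a mouse mammary tumour line, had conditioned after treatment with topotecan, a topoisomerase I inhibitor. The labels name no strain, age, dose, culture time or genotype, and leave the medium of the control unstated, so the topotecan treatment and tumour-conditioned medium as such cannot be told apart. With 1 array per culture there is no replicate error and no test. Values are log2 intensities, and a difference is the conditioned-medium value less the control value. In bulk RNA, fewer cells of a type and less RNA per cell cannot be told apart.

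TGF-beta is secreted as a latent complex and must be released from its propeptide before it binds the type II receptor TGFBR2, which then recruits and phosphorylates the type I receptor TGFBR1. The active receptor phosphorylates SMAD2 and SMAD3, which enter the nucleus with SMAD4, and SMAD7, itself induced by the signal, blocks the receptor in return. Activin A, the dimer of the inhibin beta A chain encoded by Inhba, uses its own receptors and the same SMAD2 and SMAD3. In dendritic cells and macrophages TGF-beta is known as a restraint on activation and as a factor for Langerhans cell development, and activated myeloid cells are a known source of activin A.

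The genes of the pathway did not differ in one direction. The TGF-beta ligand genes Tgfb1 and Tgfb3 and the responder Tgfbi were at least 2-fold lower with conditioned medium, while Inhba and the inhibitory Smad7 were at least 2-fold higher. The other 4, Tgfb2, Tgfbr1, Tgfbr2 and Smad3, were lower by less than 2-fold. Thus 3 of 9 were at least 2-fold lower and 2 of 9 at least 2-fold higher, where 6.84% and 8.63% of the 13712 kept genes passed the same thresholds. At 1.5-fold, 5 of the 9 were lower, beside 17.9% of kept genes, and 2 higher, beside 16.6%. At 3-fold, Tgfb1 was lower, beside 2.11%, and Inhba higher, beside 4.14%. A gene was kept when the higher of its values reached 4.10, the median of all values on both arrays. The median difference of the 9 genes was -0.71 and that of all kept genes -0.07. For scale, log2 differences of several probe sets for the same gene had a pooled SD of 0.46 within genes, which covers neither cultures nor animals. None of the 9 genes had a further probe set by which its own difference could be checked. Probe sets differ in brightness, so levels are compared here only between arrays and not between genes.

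**Figure D1:**
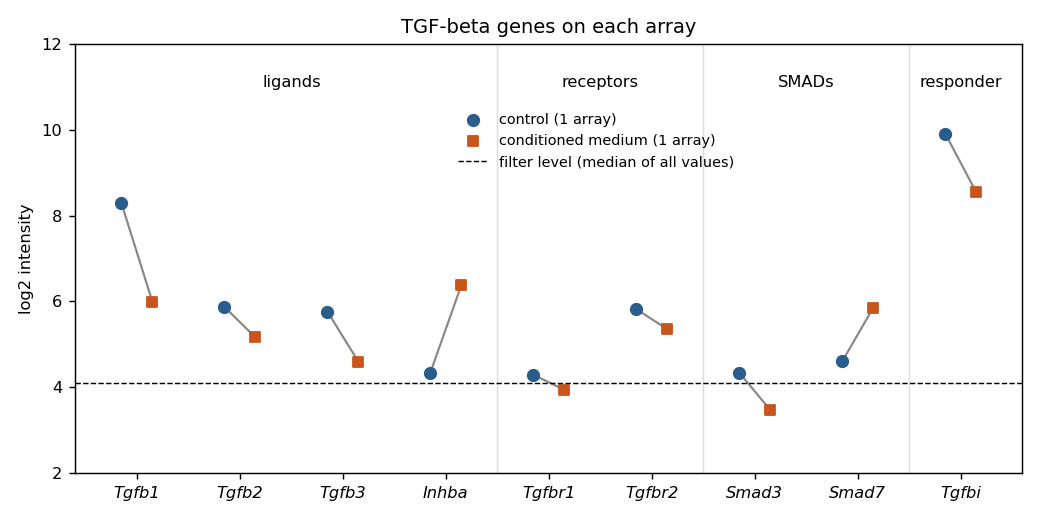
Log2 intensity of the 9 genes on the control array (circles) and the conditioned-medium array (squares), 1 array each, joined by a line per gene and grouped by role, with the filter level of 4.10 dashed. Inhba and Smad7 are the 2 genes whose line rises, and Smad3 and Tgfbr1 end below the filter level.

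The promoters of Tgfb1, Tgfbi and Inhba are shown because the first pair was lower and the third higher, by at least 2-fold. Tgfb3 and Smad7 also passed 2-fold, but no window of either was examined. Inhba is thus the only higher gene shown, and no link of promoter type to direction was tested. The windows reach from 250 bases before the annotated start to 50 after it, and come from RefSeq on build GRCm38.p6 (the build behind the array is not given in the sources used here). Tgfb1 lies at chr7:25686752-25687051, Tgfbi at chr13:56609336-56609635 and Inhba at chr13:16011601-16011900, each on the plus strand. Capitals mark GC boxes (GGGCGG on either strand, read as CCGCCC on the other) and matches to the TATA box motif (TATAAA), wherever they lie in the window.
Tgfb1 promoter: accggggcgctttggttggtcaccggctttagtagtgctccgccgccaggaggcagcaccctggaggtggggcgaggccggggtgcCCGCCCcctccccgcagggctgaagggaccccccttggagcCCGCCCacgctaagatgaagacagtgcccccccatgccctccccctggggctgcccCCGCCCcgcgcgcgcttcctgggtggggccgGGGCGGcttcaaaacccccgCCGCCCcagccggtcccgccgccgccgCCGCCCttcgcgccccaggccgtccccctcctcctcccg
Tgfbi promoter: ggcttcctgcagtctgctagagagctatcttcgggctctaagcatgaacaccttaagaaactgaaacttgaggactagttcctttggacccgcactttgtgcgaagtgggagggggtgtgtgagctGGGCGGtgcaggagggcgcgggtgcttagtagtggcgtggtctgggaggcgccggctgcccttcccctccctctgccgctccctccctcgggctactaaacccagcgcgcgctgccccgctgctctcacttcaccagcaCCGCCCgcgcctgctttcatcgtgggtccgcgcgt
Inhba promoter: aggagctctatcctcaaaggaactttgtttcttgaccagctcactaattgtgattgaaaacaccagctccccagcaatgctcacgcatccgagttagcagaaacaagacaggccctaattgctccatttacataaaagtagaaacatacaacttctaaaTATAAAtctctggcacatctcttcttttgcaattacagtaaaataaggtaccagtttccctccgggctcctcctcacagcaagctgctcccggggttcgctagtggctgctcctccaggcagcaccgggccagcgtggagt
The Tgfb1 window held 6 GC boxes, no TATA box and a GC content of 77.0%. The Tgfbi window held 2 GC boxes, no TATA box and a GC content of 63.3%. The Inhba window had no GC box and a TATAAA match that begins 91 bases before the annotated start, at a GC content of 47.7%. The median GC content of all 32851 RefSeq windows was 52.7%, and 35.7% of them held a GC box and 13.6% a TATAAA match.

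Windows were examined for 7 of the 9 genes, and Tgfbr1 had a pair of them, which made 8 windows. Tgfb3 had no window in the source. Smad7 was not examined, because windows of the 9 genes on its chromosome were left out. The shares over all windows still include that chromosome. GC boxes were found in 4 of the 8 (Tgfb1, Tgfbi, Smad3 and one of Tgfbr1) and a TATAAA match in 2 (Inhba and Tgfb2). The match of Inhba begins 91 bases before the start and that of Tgfb2 31 bases before it. The core of the SMAD-binding CAGA motif, CAGAC on either strand, stood in 4 of the 8 windows, those of Tgfbi, Tgfb2, Tgfbr2 and one of Tgfbr1, and in 49.6% of all windows. The AP-1 motif TGANTCA was in 0 of the 8 and in 7.81% of all windows. A match describes letters in the window and is not a measured site.

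Among the ligands, Tgfb1 had the lowest difference. Tgfb1 (probe set 17475342) encodes TGF-beta 1, the isoform that predominates in leukocytes. Its log2 intensity was 8.29 in the control culture and 5.99 in the treated one, which is 4.91-fold lower. Its log2 difference of -2.30 stood at place 99 from the bottom among the 13712 kept genes. Both values of Tgfb1 lay well above the filter level.

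Tgfb3 (probe set 17282743), which encodes the third isoform, stood at 5.76 in the control culture and 4.60 in the treated one, 2.24-fold lower. Tgfb2 (probe set 17230830), the gene of the second isoform, stood at 5.87 and 5.16, 1.63-fold lower. All 3 isoform genes were therefore lower on the conditioned-medium array, where 54.0% of all kept genes had a difference below 0. Tgfb1 was lower by the most, and Tgfb2 did not reach 2-fold.

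Inhba (probe set 17285438) went the other way. It encodes the inhibin beta A chain, the subunit of activin A. Its log2 intensity was 4.34 in the control culture, close to the filter level, and 6.37 in the treated one, which is 4.09-fold higher (log2 difference 2.03). It ranked at place 370 of 13712 from the top. Because the control value of Inhba lay only just above the filter level, it may hold background signal.

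**Figure D2:**
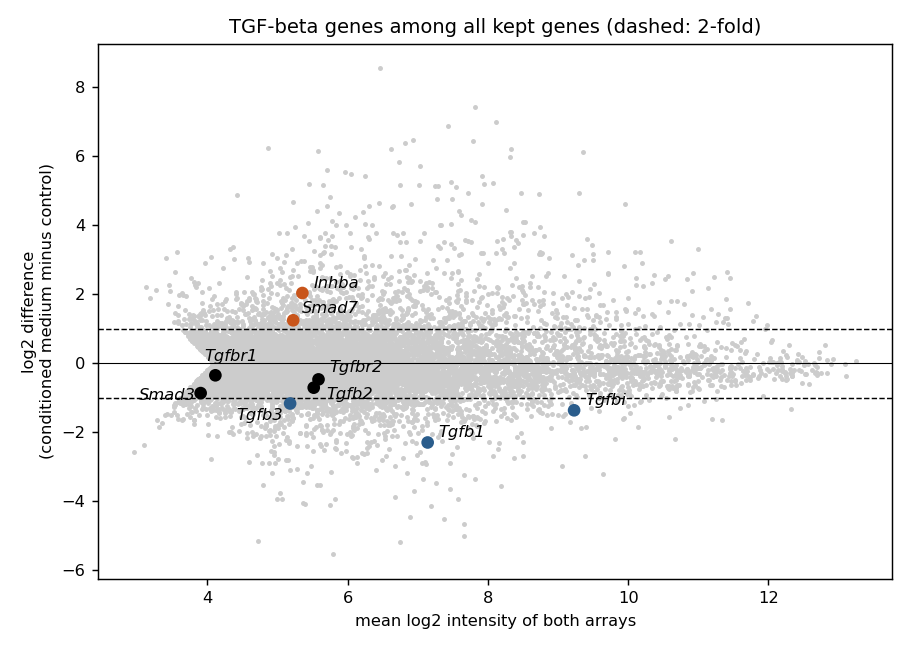
Log2 difference (conditioned medium minus control) against the mean log2 intensity of both arrays for all 13712 kept genes (grey) and the 9 named genes, coloured orange at 2-fold higher or more, blue at 2-fold lower or more and black between. Tgfb1 (-2.30) and Inhba (2.03) lie farthest from 0 among the 9.

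The receptor genes differed little. Tgfbr2 (probe set 17531987), the type II receptor that binds the ligand, stood at 5.82 in the control culture and 5.35 in the treated one, a difference of -0.47. Tgfbr1 (probe set 17413915), the type I receptor kinase, stood at 4.29 and 3.94, a difference of -0.35. Both differences were of about the size of the pooled SD between probe sets or smaller. Tgfbr1 lay under the filter level on the conditioned-medium array, and against that level its difference was -0.19.

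The pair of SMAD genes differed in opposite directions. Smad7 (probe set 17351862), the inhibitory SMAD that recruits ubiquitin ligases to the receptor, stood at 4.60 in the control culture and 5.84 in the treated one, 2.37-fold higher. Smad3 (probe set 17528111), a receptor-activated SMAD, stood at 4.34 and 3.47, a difference of -0.87. Its lower value was under the filter level, and with that value raised to 4.10 the difference was -0.24, so most of the difference of Smad3 lies in a range where signal is not told from background.

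Tgfbi (probe set 17287827) encodes a secreted matrix protein, named for its induction by TGF-beta, that binds collagens and integrins. Its log2 intensity was 9.91 in the control culture and 8.55 in the treated one, which is 2.57-fold lower (difference -1.36). Tgfbi was thus bright on both arrays. Tgfbi and Smad7, both known to be induced by TGF-beta, lay on opposite sides.

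The kept genes nearest to Inhba in log2 difference were Sp110, which encodes a nuclear body protein (7.91 and 9.94), Foxs1, a forkhead factor gene (4.92 and 6.95), and Dck, the deoxycytidine kinase gene (6.67 and 8.70), in each pair the control first. Nearest to Tgfb1 were Osbpl8, an oxysterol-binding protein relative (9.31 and 7.02), Adgre1, a macrophage surface receptor gene (9.16 and 6.87), and Ndc80, a kinetochore gene (7.48 and 5.19). These 6 differences lay within 0.01 of that of Inhba or Tgfb1. Over 2 arrays such likeness is only a like difference.

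Other genes of the pathway were more often higher than lower. A list of 83 was compiled with earlier results of these data known, so its shares only describe the list. Of the 83, 81 were analysed here and 69 kept. Of these 69, 14 (20.3%) were at least 2-fold higher, 2 (2.90%) at least 2-fold lower and 53 between, beside 8.63% and 6.84% of all kept genes. The same shares of all kept genes are the scale for the counts by role that follow. Their median difference was 0.19, against -0.71 for the 9 genes above. With values under 4.10 raised to that level, the medians were -0.47 for the 9 and 0.17 for the 69. With the filter at the 75th percentile of all values, 7 of the 9 were kept, with a median of -0.71. The 42 other genes kept by that filter had a median of 0.36.

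Among genes that release or hold latent TGF-beta, 3 of the 11 kept were past 2-fold, each on the higher side, and the median was 0.42. Differences above 0 were found for 9 of the 11, beside 44.2% of all kept genes. Thbs1, which encodes thrombospondin 1, an activator of latent TGF-beta, stood at 5.62 in the control culture and 7.29 in the treated one (3.20-fold higher). Mmp14, a membrane-bound metalloproteinase gene, was 2.36-fold higher (6.48 and 7.72). Itgav, the alpha V chain of integrins that pull the ligand from its propeptide, was 2.13-fold higher (5.56 and 6.65), but its other probe set differed by 0.22. The partner chains Itgb6 and Itgb8 were below the filter level on both arrays. The lowest kept members were Ltbp4 (-0.35), a latent TGF-beta binding protein gene, and Nrros (-0.25), which anchors latent TGF-beta on myeloid cells. Lrrc32, named after its value was seen because it encodes the related anchor GARP, stood at 4.35 and 5.34, just under 2-fold (0.99). None of the anchor and binding protein genes Nrros, Lrrc32 and Ltbp4 differed by 2-fold. The 3 genes that did, Thbs1, Mmp14 and Itgav, were higher, while Tgfb1 itself was lower.

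Among 9 kept genes of other ligands, 1 was at least 2-fold higher and 1 lower. Inha, the inhibin alpha chain that pairs with beta chains to oppose activin, was a little below 4.10 in the control culture and stood at 5.46 in the treated one (2.75-fold, or 2.57-fold against the filter level). Bmp4, a bone morphogenetic protein gene, stood at 4.46 and 3.24, and was 2.32-fold lower, or 1.28-fold against the filter level. Bmp2 (0.62) was the next highest and Lefty1 (-0.76), an antagonist of nodal signalling, the next lowest.

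The largest difference of the list, that of Dcn, lay among the extracellular antagonists. Of 5 kept, 2 were at least 2-fold higher and 0 lower. Dcn encodes decorin, a matrix proteoglycan that binds TGF-beta, and stood at 3.96 in the control culture and 7.98 in the treated one (16.1-fold, or 14.7-fold against the filter level). Grem1, the gene of the BMP antagonist gremlin 1, was 5.10-fold higher (4.66 and 7.01). Fst, which encodes the activin-binding follistatin, was level (5.62 and 5.60), and Chrd, the chordin gene, was the lowest at -0.53. Dcn is also a fibroblast marker. Of the 6 fibroblast markers listed, 1 (Dcn) was at least 2-fold higher and 1 (Col6a1) lower. Col6a1 differed by -1.64, but by -0.31 at its other probe set. Lum and Pdgfrb were below the filter level on both arrays. Mean log2 levels of the 6 were 4.97 in the control culture and 5.53 in the treated one. Without Dcn, the means of the other 5 were 5.17 and 5.04. The part of fibroblast RNA in the Dcn difference was not tested.

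**Figure D3:**
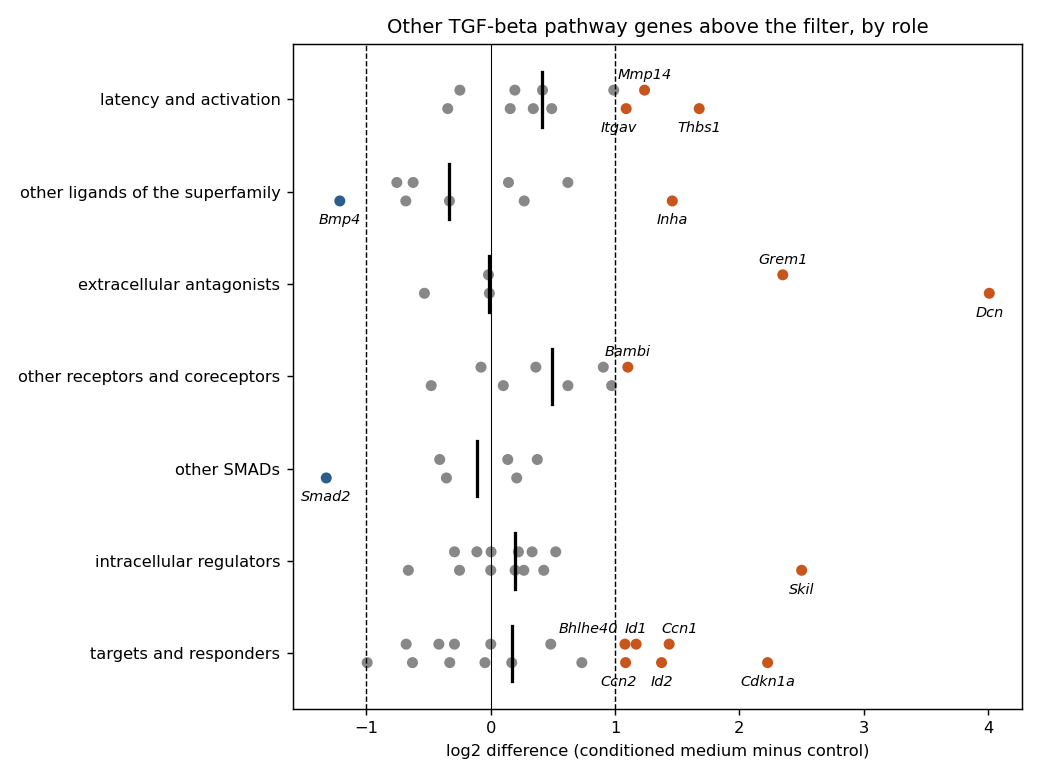
Log2 difference (conditioned medium minus control, 1 array each) of the 69 other kept pathway genes by role, 1 point per gene, orange at 2-fold higher or more and blue at 2-fold lower or more, with a black bar at each role's median and dashed lines at 2-fold. Named points are the 14 higher and 2 lower genes, from Dcn (4.01) to Smad2 (-1.32).

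Of 8 kept receptor and coreceptor genes, 1 was at least 2-fold higher and 0 lower. Bambi encodes a receptor that lacks the kinase domain and damps TGF-beta, activin and BMP signals, and stood at 5.86 in the control culture and 6.96 in the treated one (2.15-fold higher). Eng, the gene of the coreceptor endoglin, followed at 0.97. Acvr2b (-0.48), an activin receptor gene, and Acvr1 (-0.08) were the lowest.

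The 6 other SMAD genes included 1 past 2-fold. Smad2, which carries TGF-beta and activin signals beside Smad3, stood at 6.38 in the control culture and 5.06 in the treated one (2.50-fold lower). Smad6, the inhibitory SMAD of BMP signalling, differed by -0.41. Smad4, the common partner (0.37), and Smad1, a BMP SMAD (0.21), were the highest. Both carriers of TGF-beta and activin signals, Smad2 and Smad3, were thus lower, as were 54.0% of all kept genes. Smad2 fell from a level well above the filter. Smad3 ended under the filter level, and against that level its difference was only -0.24.

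Among 13 intracellular regulators, 1 was at least 2-fold higher and 0 lower. Skil encodes SnoN, a SMAD corepressor, and stood at 3.93 in the control culture and 6.43 in the treated one (5.66-fold, or 5.04-fold against the filter level). Smurf1, a ubiquitin ligase gene, differed by 0.52 and its relative Smurf2 by -0.29. Usp15, a deubiquitinase that acts on the receptor, was the lowest at -0.66.

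Past 2-fold were 6 of the 17 kept target genes, each on the higher side, and the median was 0.17. Cdkn1a, which encodes the cell-cycle inhibitor p21 and is also a p53 target, was 4.68-fold higher (9.11 in the control culture and 11.33 in the treated one). Ccn1 (2.70-fold) and Ccn2 (2.12-fold) encode matricellular proteins, and the dimmer probe set of Ccn2 differed by 0.20. Id2 (2.59-fold) and Id1 (2.25-fold) encode inhibitors of helix-loop-helix factors and are targets of BMP signals, and Bhlhe40 (2.11-fold) encodes a transcriptional repressor. The lowest targets were Acta2, the smooth muscle actin gene (-0.99), and Col3a1, a collagen chain gene (-0.68). Many of these targets answer to other signals too.

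The labelled cell type and the makeup of the cultures were checked with markers. Of 7 measured dendritic cell markers, 6 were kept. Itgax, the CD11c gene, stood at 8.18 in the control culture and 7.15 in the treated one. Itgax, Itgam (7.01 and 7.64) and the class II genes H2-Aa and H2-Ab1 were well above the filter level on both arrays. Ciita (4.91 and 4.99) was also above that level on both. Flt3 (4.38 and 3.15) was near or under it, and Zbtb46, which was not kept, was under it on both. Of the 6 kept, H2-Aa (3.68-fold) and H2-Ab1 (2.21-fold) were at least 2-fold higher and Itgax (2.04-fold) and Flt3 (2.35-fold, or 1.22-fold against the filter level) lower. All 7 macrophage markers were also above the filter level on both arrays, with means of 9.45 and 8.83. Of the 7, 2 were at least 2-fold lower, Csf1r (-2.93) and Adgre1 (-2.29). Fcgr1 was higher (0.98), just under 2-fold, and Mertk, C1qa, C1qb and C1qc differed by -0.19 to 0.26. Of 9 neutrophil and granule markers, 8 were at least 2-fold lower, while Ly6g was higher (0.74). Mean log2 levels of the 9 were 8.82 in the control culture and 5.86 in the treated one. Camp, Elane and Mpo ended under the filter level. Among all kept genes, 6.84% were at least 2-fold lower and 8.63% at least 2-fold higher. The 4 measured platelet markers had means of 8.28 and 8.15, with 0 past 2-fold. Of the 6 measured epithelial tumour markers, Cdh1 (3.79, but 0.55 at its other probe set) and Krt19 (2.15) were at least 2-fold higher, Krt8 differed by -0.19, and Epcam, Krt14 and Krt18 were below the filter level on both arrays. The means of the 6 were 4.34 and 5.26. The 6 measured T and B cell markers had means of 4.14 and 4.29, with 0 past 2-fold. The part of these shifts in the differences of Tgfb1, Tgfb3, Tgfbi, Inhba and Smad7 was not tested.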

How the data were processed

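Total RNA of 2 cultures was extracted with Trizol and labelled with biotin, per the labels' protocols, with 1 array per culture. The authors deposited log2 values per probe set. The log base is inferred from a range of -0.26 to 13.50. Affymetrix Expression Console is named in the submitters' processing notes, and its version, its algorithm and the build were not given in the sources used here. Symbols came from the platform annotation, and 23521 of 41345 probe sets had exactly 1.

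A gene was represented by its brightest probe set over both arrays, and genes with either value at or above 4.10 were kept. A fold is 2 raised to the log2 difference. Genes past 2-fold were counted. No test was possible. Where the lower value lay under 4.10, the difference was also taken against 4.10.

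The genes and lists were chosen with earlier results of these data known, and the promoter motifs after the values were seen. All other pathway genes past 2-fold, and the 2 highest and 2 lowest of each role, were named, as were the 3 genes nearest in difference to the highest and lowest of the 9; genes below the filter and Lrrc32 were named in addition. Alternatives were quantile normalization, lowess (fraction 0.3, 3 iterations), centring, other probe set rules, other filters, a floor, and 1.5-fold and 3-fold thresholds. The counting was tested on simulated data. Python 3.11.15, numpy 2.4.6, pandas 2.3.3, statsmodels 0.14.6 and matplotlib 3.10.9 were used.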

Additional observations from a re-analysis of the deposited data

How the results depend on the processing

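No paired analysis was possible because each group had 1 array, and for the same reason none could be left out. Under quantile normalization, lowess, centring, other probe set rules, other filters and a floor at 4.10, every one of the 9 genes kept the sign of its difference wherever it passed the filter, and the counts of 2 higher and 3 lower held. The filters and probe set rules cannot change the difference of a gene with 1 probe set, and the floor cannot reverse a sign. Only quantile normalization, lowess and centring could have reversed a sign. Tgfb1 ranged from -2.33 to -2.18, Inhba from 2.02 to 2.10, Smad7 from 1.24 to 1.31, Tgfbi from -1.41 to -1.26 and Tgfb3 from -1.17 to -1.10. Smad3 moved to -0.24 with the floor and was not kept with the filter on the mean of both arrays or at the 75th percentile (5.48), where Tgfbr1 was not kept either. At 3-fold, 1 of the 9 was higher and 1 lower; at 1.5-fold, 5 were lower. Of the other pathway genes, the 3-fold threshold gave 5 higher and 0 lower, beside 4.14% and 2.11% of all kept genes. The 1.5-fold threshold gave 20 higher and 9 lower, beside 16.6% and 17.9% of all kept genes. Bmp4 no longer counted as lower with the floor or with either stricter filter, which left 1. Quantile normalization gave 3 other pathway genes at least 2-fold lower. The count at least 2-fold higher, 14 in the main results, was 16 with lowess and with centring. It was 13 with the filter at the 75th percentile and 12 with probe sets averaged. Over these alternatives the median of the 9 genes ran from -0.72 to -0.47 and that of the other pathway genes from 0.16 to 0.36. The number of arrays limits the precision.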

Other observations

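Further probe sets bear on 6 other kept pathway genes. Tsc22d1, a TGF-beta-responsive transcription regulator gene, had a probe set at 6.54 in the control culture and 6.21 in the treated one and another at 5.65 and 6.50, so its direction is not settled. The 2 probe sets of Col1a2, a chain of type I collagen, were both lower, by 0.63 and 0.18 on the log2 scale. Those of Ccn2 (1.08 and 0.20) and Itgav (1.09 and 0.22) were both higher, and averaging each gene's probe sets left 12 rather than 14 other pathway genes at least 2-fold higher. The probe sets of Ppm1a, a SMAD phosphatase gene, differed by 0.00 and -0.20, and those of Zfyve9 by 0 and 0.15.

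Identical values on both arrays were found for Cdkn2b, the gene of the cell-cycle inhibitor p15 and a target of TGF-beta (7.06), for Zfyve9, which encodes the SMAD anchor SARA (4.92), and for the BMP receptor gene Bmpr1b (2.99). Such equality held for 1722 of 41345 probe sets.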
